A study of Rattus norvegicus with 36 samples.

Results

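The genes of the cytoplasmic ribosomal proteins were followed through the colon of WT and Pirc rats. Members were taken by symbol: Rpl or Rps with a number (and a final a, x or l where the symbol has one), Rplp0 to Rplp2, and Rpsa. The rule found 81 of 17352 named entries in the RNA-seq table, and it used no measured value. They comprised 43 proteins of the large (60S) subunit, 31 of the small (40S) subunit, the 3 acidic stalk genes and 4 paralogs (Rpl3l, Rpl22l1, Rpl39l and Rps27l). Values were RPKM, the reads of a gene per kilobase of its length, scaled to the mapped reads of the library.

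Pirc rats (F344/NTac-Apc am1137) carry a mutated Apc allele and grow colon polyps, whereas WT F344 rats do not carry it. All animals were males, and all tissue was from the colon at 30 weeks of age. There were 6 groups of 3 libraries: WT rats on AIN93 diet (WCN) or on AIN93 with freeze-dried baby spinach at 10% by weight (WSN), normal-looking Pirc colon on the control diet (PCN) or on spinach (PSN), and Pirc colon tumors on the control diet (PCT) or on spinach (PST). Tumor and normal-looking colon of a diet came from the same rats, and p-values measure the spread between libraries of 3 rats a group.

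A ribosome is built from ribosomal RNA and about equal numbers of each ribosomal protein, which are made in the cytoplasm, carried into the nucleolus and joined there to the RNA. Most mammalian ribosomal protein mRNAs begin with a C followed by a run of pyrimidines, the 5′ terminal oligopyrimidine (TOP) tract, through which mTOR signaling adjusts their translation. Their genes are also known as targets of Myc, and growing intestinal epithelium makes many ribosomes.

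RefSeq start sites were available for 65 of the 81 members (66 entries, rat build GRCr8). For 6 members that the later comparisons turn on, 40 bases around the annotated start are given, 20 before it and 20 from it on. Capitals mark runs of at least 5 pyrimidines, and the start is base 21.
Rps7 (chr6:50999426-50999465, minus strand): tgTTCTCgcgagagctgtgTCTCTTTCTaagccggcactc
Rps15 (chr7:10068096-10068135, minus strand): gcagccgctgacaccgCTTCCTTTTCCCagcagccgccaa
Rpl34 (chr2:221962264-221962303, minus strand): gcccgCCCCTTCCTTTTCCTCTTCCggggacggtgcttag
Rpl29 (chr8:115947623-115947662, plus strand): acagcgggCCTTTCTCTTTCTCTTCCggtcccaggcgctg
Rpl18 (chr1:105325250-105325289, plus strand): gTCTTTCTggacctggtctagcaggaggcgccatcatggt
Rpl22l1 (chr2:113683176-113683215, plus strand): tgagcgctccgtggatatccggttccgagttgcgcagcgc

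The runs of Rps7, Rps15 and Rpl34 cover the start, and that of Rpl29 also does, although its annotated first base is a T rather than a C. The run of Rpl18 ends well before its annotated start, and Rpl22l1 has none in this window. Over all entries, 24 of the 66 member start sites (36.4%) had a C followed by at least 4 pyrimidines exactly at the annotated start, against 2.63% of 33469 rat start sites and 3.51% of 57 entries of mitochondrial ribosomal protein genes. A run of at least 8 pyrimidines within 20 bases on either side was present in 71.2% of member entries and in 15.5% of all entries. Of 22 entries of other mRNAs known to carry a TOP tract, 4.55% had the exact match and 63.6% such a run. A missing match at the annotated start is therefore not read as a missing tract. In the window from 250 bases before to 50 bases after the start, searched on both strands, CTTCCG, the core of sites for ETS-family factors, was found in 54.5% of member entries, 50.9% of those of mitochondrial ribosomal protein genes and 16.6% of all. A match describes the letters of the window alone.

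Libraries correlated at r = 0.834 to 0.982 across genes and none held the same values as another. RPKM holds no read totals, and the relative depth read from the spacing of the lowest values was 0.622 to 1.521 times the median library. Epithelial markers (Epcam, Cdh1, Krt8 and 5 others) summed to 5341 to 9086 RPKM, so colon epithelium was present in all 18 libraries. Of the marker lists, the B cell list summed to no more than 3.24 RPKM in PCT and 5.88 in PST, and the collagen gene Col1a2 was listed at 0 in every library. PST 2 stood apart from its group, over all genes as well as the ribosomal protein genes. Of the 72 members tested, 61 lay below the mean of PST 1 and PST 3, with a median log2 difference of -0.37. Over all genes the median was -0.10 and the SD 0.65, the largest of the 18 libraries. Results that rest on PST 2 are also given without it.

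Ribosomal protein genes were listed at low levels. The median member had a mean of 6.65 RPKM over the 18 libraries, against 34.25 for 70 mitochondrial ribosomal protein genes. Among the members, 46 lay between 1 and 10 RPKM, 26 at 10 or more and 9 below 1. Among the most abundant were Rpl14 (70.9 RPKM), Rplp0 (55.63), Rpl3 (44.03) and Rps27l (39.78). The 60S and 40S members had similar medians, 7.05 and 6.91 RPKM. Proteins that a ribosome holds in like number were thus listed at widely different levels per kilobase.

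Listed at 0 RPKM in all 18 libraries were 3 ribosomal protein genes: Rps6, the 40S protein phosphorylated by the S6 kinases, Rps9, and the stalk protein Rplp2. Means of Rpl7a (0.005), Rps19 (0.00667), Rpl3l (0.0867), Rpl39l (0.134), Rpl8 (0.224) and Rplp1 (0.523) were below 1 RPKM. Rps19, the gene most often mutated in human Diamond-Blackfan anemia, was above 0 in WCN 3 (0.05 RPKM) and PCT 2 (0.07 RPKM) alone. Since every cell needs Rps6, Rps9, Rps19 and Rpl8, a value at or near 0 is not read as absence of the mRNA. Rpl3l, known as the striated muscle paralog of Rpl3, was at most 0.36 RPKM. Rpl39l, known for its expression in the mammalian testis, was at most 0.99 RPKM. These 9 members did not reach 1 RPKM in 3 libraries, and the comparisons cover the other 72.

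Ribosomal protein genes have many processed pseudogenes, and reads that match several copies can be dropped or split. RefSeq named a median of 14 pseudogenes or "like" genes (range 0 to 36) for each of 80 members, 1099 in all, against a median of 0 and a sum of 39 for 69 mitochondrial ribosomal protein genes. The 5 members with 0 to 3 such copies had a median of 36.24 RPKM, those with 4 to 9 (n = 18) a median of 7.88, those with 10 to 15 (n = 27) 8.55 and those with 16 or more (n = 30) 6.27. Rpl14, among the most abundant, had 5 copies. Rps6, Rps9, Rps19 and Rpl7a, at or near 0, had 11, 17, 20 and 21. Other members below 1 RPKM had few: Rplp2, also at 0, had 5, Rplp1 and Rpl8 had 6 each, and Rpl3l had 0. Over the 80 members, Spearman's rho of copy number with mean RPKM was -0.14, so the relation among members was weak. Of other genes, Rack1 (3 copies) had 241 RPKM, Actb (11 copies) 1354, Gapdh (91 copies) 16.6 and Eef1a1 (22 copies) 11.2. Fau, with 4 copies, had 5.65 RPKM, and Tpt1, with 11 like Actb, had 23.8. How the authors treated reads with several matches was not given in the sources used here, so the values of single members are uncertain and the part of the copies in them was not tested.

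**Figure D1:**
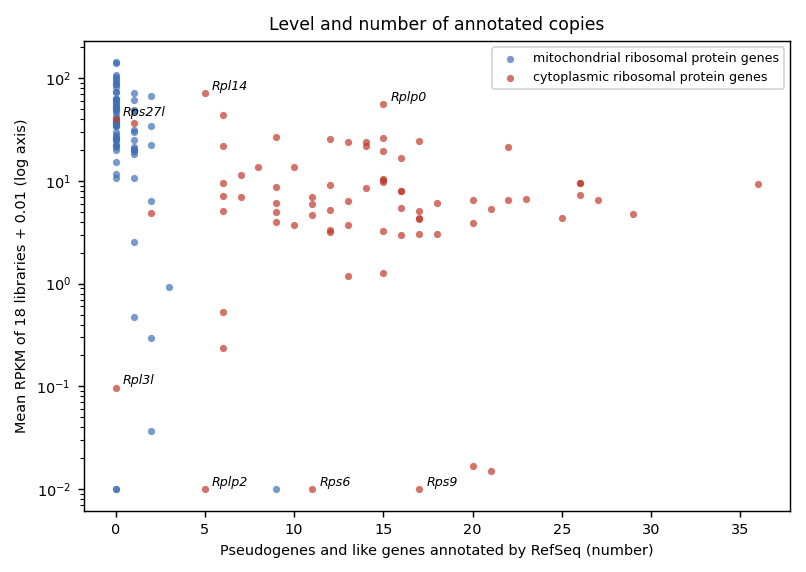
Mean RPKM over 18 libraries, with a small constant added so that 0 can be drawn (vertical axis, log scale), against the number of RefSeq pseudogenes and "like" genes named after each gene (horizontal axis), for cytoplasmic and 69 mitochondrial ribosomal protein genes. The 75 cytoplasmic members drawn spread from 0 to 36 copies with no steep trend, while mitochondrial members have a median of 0 copies and lie higher as a group.

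The share of all summed RPKM that fell on the 81 members was higher in tumors than in most normal tissue. It was 0.234 to 0.284% in the 3 WCN libraries, 0.259 to 0.281% in WSN, 0.212 to 0.255% in PCN and 0.208 to 0.246% in PSN. In PCT it was 0.327 to 0.354%, above every normal library. In PST it was 0.326%, 0.245% in PST 2 and 0.340%, so PST 2 lay among the normal libraries and the other 2 with PCT. Group means were 0.252 ± 0.028% (SD, n = 3) in WCN, 0.270 ± 0.011% in WSN, 0.239 ± 0.024% in PCN, 0.222 ± 0.021% in PSN, 0.340 ± 0.013% in PCT and 0.304 ± 0.051% in PST.

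**Figure D2:**
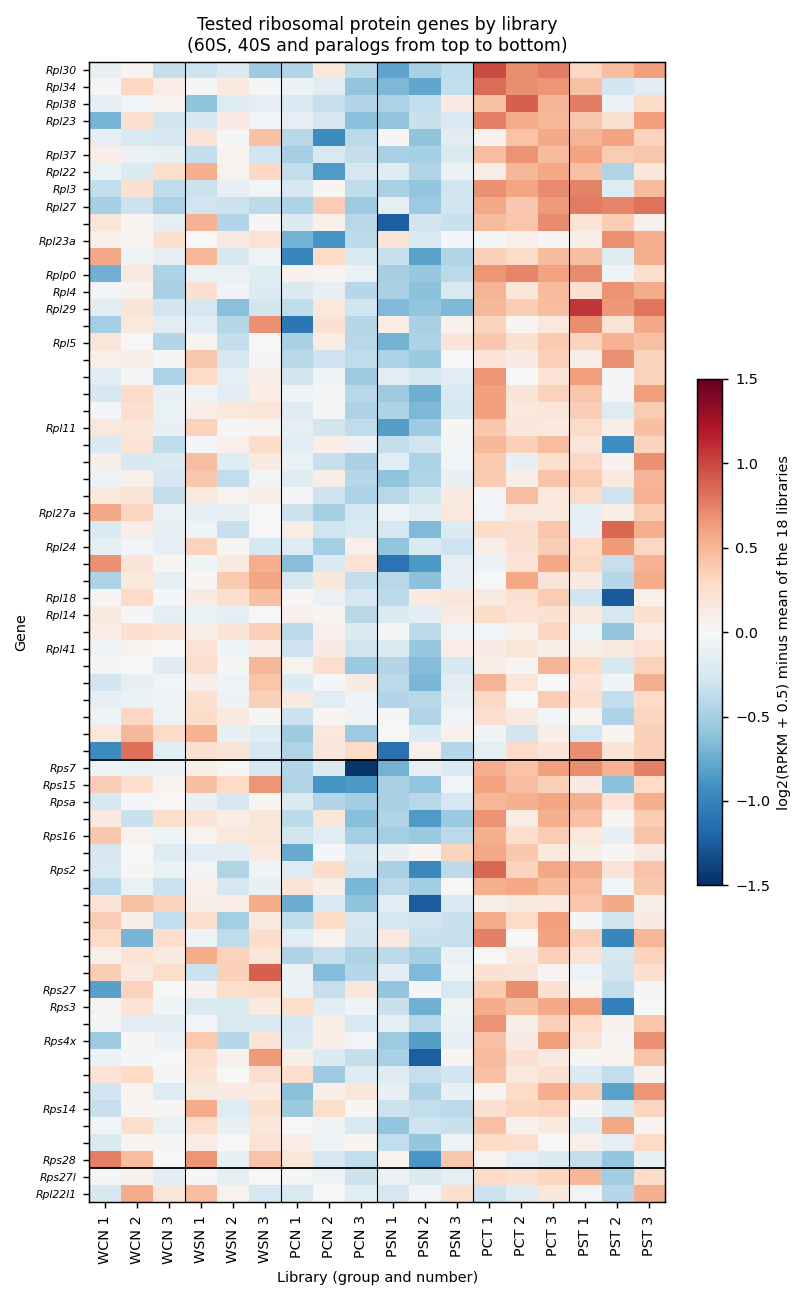
Heat map of 67 tested ribosomal protein genes (rows, names given for those described in the text) in the 18 RNA-seq libraries (columns), as the log2 difference of each value from the gene's mean over all libraries. The 3 PCT libraries and PST 1 and 3 are mostly above the gene means, PST 2 is near them, and PSN 2 is mostly below.

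The comparison of tumor with normal-looking colon on the control diet asked how tumor tissue differed from colon of the same rats. All 72 tested members had a log2 difference above 0, as had 60.1% of all genes. Of these, 28 rose and none fell at an adjusted p under 0.05 (limma on log2(RPKM + 0.5), Benjamini-Hochberg over 11544 genes), which is 38.9% of the members beside 21.0% of all genes tested that rose and 11.7% that fell. The median log2 difference was 0.54 for the members and 0.13 for all genes. In 48 members every PCT library was above every PCN library, as in 32.3% of all genes. By subunit, 15 of 41 tested 60S genes, 12 of 28 tested 40S genes and the stalk gene Rplp0 rose, and neither tested paralog did. Leaving out PCN 3 gave 15 called members and leaving out PCT 1 gave 17. Counts of called members under alternative fits are given without the share of all genes called there. A change in them is not read as particular to the members. Mitochondrial ribosomal protein genes had a median of 0.36, with 17 of 64 called higher.

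Among the 40S genes, Rps7, a protein also known to bind Mdm2, was at 4.45, 5.33 and 1.95 RPKM in the PCN libraries and at 9.28, 8.50 and 9.75 in PCT. The groups did not overlap, and the log2 difference was 1.22 ± 0.25 (SE, n = 3 a group, limma adjusted p = 0.00218). Rps15, a protein of the 40S head, was at 4.09, 2.89 and 2.95 RPKM in PCN and 8.97, 8.13 and 7.49 in PCT, again with no overlap. Its log2 difference was 1.20 ± 0.23 (limma adjusted p = 0.00129). Rps15 in PCT was near its WT level (7.58, 6.92 and 5.96 RPKM in WCN), so the PCN libraries were the low ones. Rpsa, also known as the laminin receptor precursor, rose by a log2 difference of 0.93 ± 0.14, from 6.23 to 7.91 RPKM in PCN to 13.16 to 14.08 in PCT (limma adjusted p = 0.000334). Its replicates were close together in both groups.

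Among the 60S genes, Rpl30, a protein that in yeast represses splicing of its own transcript, was at 6.96, 10.77 and 7.25 RPKM in PCN and at 19.58, 15.95 and 16.76 in PCT. Every tumor library was above every normal-looking one, with a log2 difference of 1.04 ± 0.18 (limma adjusted p = 0.000697). Rpl34 was at 7.73, 7.29 and 5.30 RPKM in PCN and 15.22, 13.67 and 13.38 in PCT, a log2 difference of 1.02 ± 0.20 (limma adjusted p = 0.00133). The pyrimidine run that covers its start is the longest of the 6 shown above. Rpl38, whose loss in mice alters translation of Hox mRNAs, was low everywhere, at 0.88, 0.77 and 0.69 RPKM in PCN and 1.68, 2.51 and 1.79 in PCT. It still rose, by 0.95 ± 0.26 on the log2(RPKM + 0.5) scale, which understates changes at such levels (limma adjusted p = 0.0111). Rplp0, the stalk base, was at 49.56 to 55.67 RPKM in PCN and 80.73 to 88.55 in PCT, a log2 difference of 0.66 ± 0.19 (limma adjusted p = 0.0163). Without PCN 3 its adjusted p was 0.0639.

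Several members with known roles outside the ribosome did not pass the test on the control diet. Rpl5 and Rpl11, which with 5S ribosomal RNA bind the ubiquitin ligase Mdm2, had log2 differences of 0.61 ± 0.23 and 0.51 ± 0.21 (limma adjusted p = 0.0521 and 0.0712), with no overlap between PCT and PCN for either. Rps14, the haploinsufficient gene of the human 5q- syndrome, had 0.39 ± 0.23 (limma adjusted p = 0.212) and overlapping groups. Rps27l had 0.43 ± 0.19 (limma adjusted p = 0.0874), while its partner Rps27 had 0.53 ± 0.26 (0.126). In a fit of PCT and PCN alone, the limma adjusted p of Rps27l was 0.0285, and 0.0417 with the library number as a block. Of another paralog pair, Rpl22 rose by 0.89 ± 0.24 (limma adjusted p = 0.0107), and its paralog Rpl22l1 was at 3.99, 4.73 and 4.18 RPKM in PCN and 3.70, 4.09 and 5.41 in PCT, a log2 difference of 0.02 ± 0.27 that turned below 0 under median-of-ratios and quantile scaling. The difference between Rpl22 and Rpl22l1 was not tested.

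On the spinach diet, 39 members rose in PST over PSN and none fell, 54.2% of those tested beside 25.9% of all genes that rose and 16.5% that fell. The median log2 difference was 0.58 for the members and 0.12 for all genes, and 68 of the 72 were above 0, as were 56.9% of all genes. In 38 members every PST library was above every PSN library, as in 29.8% of all genes. The 60S genes accounted for 25 of the 39 (of 41 tested), the 40S genes for 13 (of 28), and Rplp0 made up the rest, again with no paralog. Mitochondrial members had a median of 0.23, with 16 called higher and 3 lower of 64. With the library number as a block, on the assumption that a shared number marks 1 rat, the limma count in a fit of these 2 groups was 20, all of them among the 39, and such a fit without the block also gave 20. Leaving out PSN 1 gave 24, PSN 2 gave 22, and PST 2 gave 49.

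Rpl29, a 60S protein also found at the cell surface as a heparin-binding protein, was at 2.33, 2.47 and 2.32 RPKM in PSN and at 8.96, 6.54 and 7.33 in PST. It had the largest log2 difference of the members, 1.49 ± 0.19 (limma adjusted p = 4.1e-05), with tight PSN values and no overlap. Rpl27 was at 8.62, 6.42 and 7.72 RPKM in PSN and 16.73, 16.26 and 17.16 in PST, a log2 difference of 1.10 ± 0.20 (limma adjusted p = 0.000427). For Rpl27, PST 2 did not stand apart. Rpl30 was at 5.35, 6.75 and 7.26 RPKM in PSN and 12.09, 13.47 and 15.07 in PST, a log2 difference of 1.02 ± 0.18 (limma adjusted p = 0.000427). Rpl30 was thus among the 5 largest rises on both diets. Rps2, a protein of the mRNA entry channel, was at 6.21, 4.31 and 6.70 RPKM in PSN and 13.22, 10.32 and 12.22 in PST, a log2 difference of 1.01 ± 0.20 (limma adjusted p = 0.0011). Rps7 was at 3.60, 5.68 and 5.35 RPKM in PSN and 10.36, 9.18 and 10.80 in PST, a log2 difference of 1.00 ± 0.25 (limma adjusted p = 0.00529). Both 40S genes had no overlap between the groups.

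Rpl5 and Rpl11 passed the test on the spinach diet, with log2 differences of 0.76 ± 0.23 and 0.73 ± 0.21 (limma adjusted p = 0.0141 and 0.0104). Both calls were lost with the number as a block (0.0543 and 0.0719) and without PSN 1 (0.0795 and 0.0627), and that of Rpl5 also without PSN 2 (0.0504). The block was fitted on PST and PSN alone, and such a fit without it also lost Rpl11 (limma adjusted p = 0.0717). Rpsa rose by 0.81 ± 0.14 (limma adjusted p = 0.000408) and Rpl3, at the peptidyl transferase center, by 0.80 ± 0.21 (0.00614). Rps4x, the X-linked form of the 40S protein S4, rose by 0.80 ± 0.26 (0.02), a call lost without PSN 1, PSN 2 or PST 3 (adjusted p 0.0541 to 0.0923). The call of Rps4x was also lost in a fit of PST and PSN alone and under quantile scaling (limma adjusted p = 0.0561 in each). Among members that did not pass, Rpl22l1 (0.05 ± 0.27), Rps28 (-0.21 ± 0.29) and Rps14 (0.40 ± 0.23) had limma adjusted p of 0.902, 0.582 and 0.174. Rps27l (0.23 ± 0.19, limma adjusted p = 0.338) was at 55.44 and 47.63 RPKM in PST 1 and 3 but 27.12 in PST 2. Without PST 2 its log2 difference was 0.53 (adjusted p = 0.00227).

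**Figure D3:**
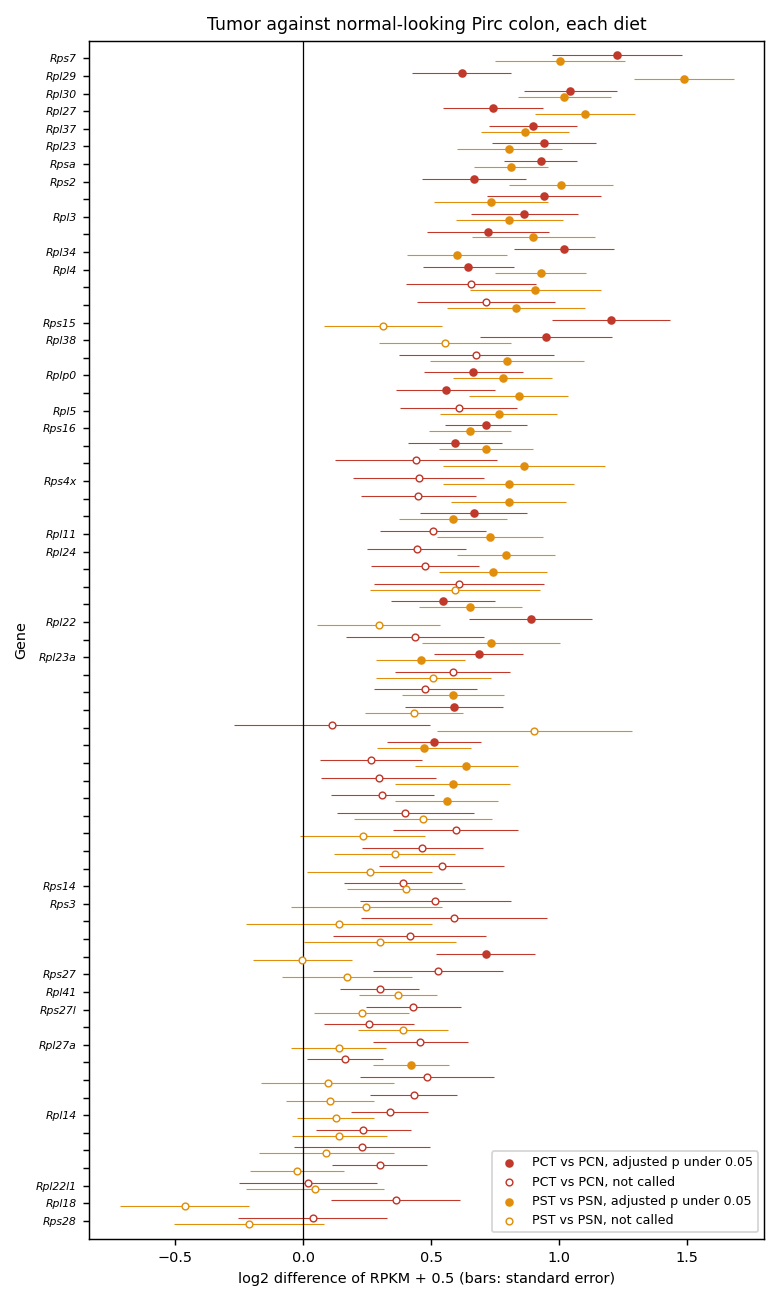
Log2 difference in RPKM + 0.5 of tumor from normal-looking colon for 67 tested ribosomal protein genes (names given for those described in the text), on the control diet (PCT vs. PCN) and on spinach (PST vs. PSN), with bars for 1 SE on each side of the limma estimate. All points of the control diet and all but 4 of the spinach diet lie above 0, with Rpl29 highest on spinach (1.49) and Rps7 highest on the control diet (1.22).

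Both tumor comparisons use separate rats and libraries. They had 22 called members in common, 78.6% of the 28 and 56.4% of the 39. These included Rpl3, Rpl4, Rpl23, Rpl30 and Rpl37 of the 60S subunit and Rps2, Rps7, Rps16 and Rpsa of the 40S subunit. The share of all genes called in both was not counted. The same fit gave each gene's spread in both comparisons, so the overlap is a description. Another 27 tested members were called in neither, among them Rpl14, Rpl41, Rps14, Rps28, Rps3 and Rpl22l1. Across the 72 members, Spearman's rho between the log2 differences of the 2 comparisons was 0.47, a description over genes that share libraries. For the interaction of tumor with diet, limma called 0 members, beside 0% of all genes, with 1 member higher (1.39%) and 3 lower (4.17%) at an unadjusted p under 0.05, beside 1.96% and 1.99% of all genes. Rps15 and Rpl29 had its smallest p-values: the tumor difference of Rps15 was 1.20 on the control diet and 0.31 on spinach, an interaction of -0.89 ± 0.33 (limma adjusted p = 0.999).

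Calls were also counted by start site. Of 23 tested members with a C and 4 or more pyrimidines at the start, 9 rose in PCT over PCN and 10 in PST over PSN. Of 35 tested members with a start site but without that match, 13 and 20 rose. The match depends on the annotated first base, so these members may still carry the tract.

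Markers of tissue makeup moved in the same comparisons. All 9 smooth muscle markers (Myh11, Des, Acta2 and others) fell in both, from sums of 1355 to 9541 RPKM in the normal libraries to 170 to 373 in the tumors. Goblet cell markers fell for 5 of 6 tested, from sums of 3579 to 11050 RPKM to 621 to 1791. Neutrophil markers rose for 7 of 7 and 6 of 7 genes, from sums of 8.17 to 82.1 RPKM to 215 to 1736. Cell division genes rose for 9 and 7 of 10. Their sums were 119.5 to 259.1 RPKM in PCN and 288.7 to 562.9 in PCT. In PSN they were 183.8 to 307.8 and in PST 433.2 to 500.4, so the groups overlapped in neither comparison. The PCT sums did overlap with those of WT colon (233.5 to 350.3 in WCN). None of the smooth muscle, goblet or neutrophil markers was at 0 in every library. In bulk tissue, fewer cells of a type and less RNA per cell cannot be told apart, and the part of these cell types in the ribosomal protein values was not tested.

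Tumors were also compared with WT colon, with the same tumor libraries as above. In PCT against WCN, 15 members rose and none fell, 20.8% beside 24.9% of all genes, so the share was near the background. The member median was 0.38 and that of all genes 0.15. Rplp0 was at 32.04, 58.46 and 38.02 RPKM in WCN and at 84.48, 88.55 and 80.73 in PCT, a log2 difference of 1.02 ± 0.19 (limma adjusted p = 0.000777), and WCN 2 lay nearest the tumors. Rpl27 (0.97 ± 0.20), Rpl30 (0.96 ± 0.18) and Rpl23 (0.85 ± 0.20) had limma adjusted p-values from 0.000746 to 0.00416, and none of the 3 overlapped between groups. The count without WCN 3 was 9.

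In PST against WSN, 8 members rose and 1 fell, 11.1% beside 24.2% of all genes higher and 1.39% beside 19.7% lower. Member and all-gene medians were 0.13 and 0.04, and that of the members was 0.26 without PST 2, 0.05 without PST 3 and 0.06 without WSN 2. The 5 largest rises were Rpl29 (1.23 ± 0.19), Rpl27 (1.11 ± 0.20), Rpl30 (0.82 ± 0.18), Rps7 (0.71 ± 0.25) and Rpl37 (0.67 ± 0.17), with limma adjusted p from 0.000159 to 0.0323. The call of Rps7 was lost without any 1 of WSN 2, WSN 3, PST 1 or PST 3 (adjusted p 0.0564 to 0.11). Rpl18 was the only member called lower in any comparison, at 20.58, 22.39 and 25.93 RPKM in WSN and 15.37, 7.59 and 19.90 in PST. Its log2 difference was -0.76 ± 0.25 (limma adjusted p = 0.0227). PST 2 was the lowest of the 3, and without it the difference was -0.38 (adjusted p = 0.112) and the count of called members 13, all higher. Without WSN 3 the call of Rpl18 was also lost (0.0782). Under median-of-ratios scaling 8 members rose and 4 fell, and under quantile scaling 7 rose and 4 fell.

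**Figure D4:**
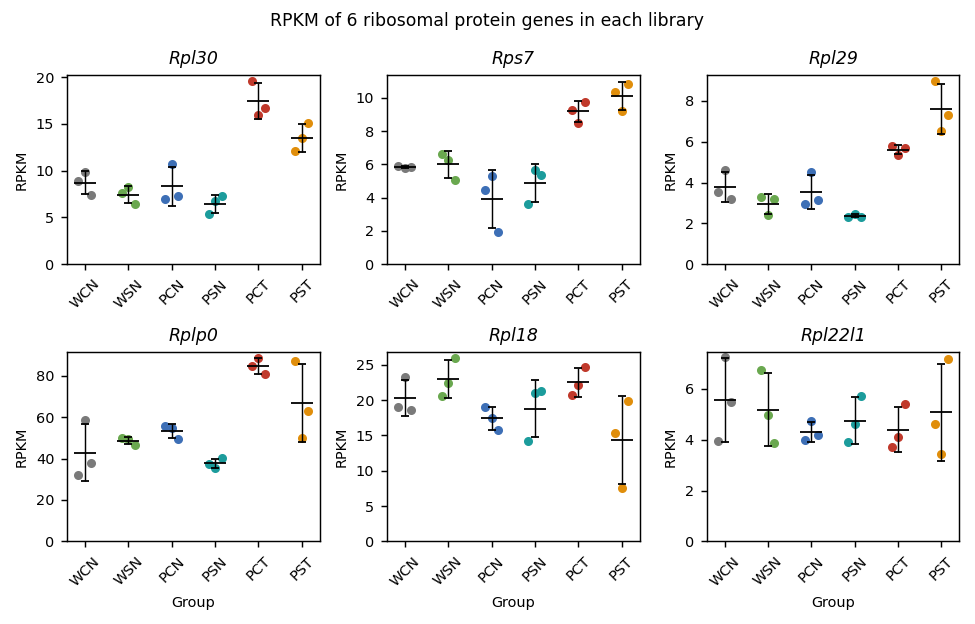
RPKM of Rpl30, Rps7, Rpl29, Rplp0, Rpl18 and Rpl22l1 in each of the 18 libraries, by group, with the mean and SD of 3 libraries. Rpl30 and Rps7 are higher in every tumor library than in every normal library, Rpl29 is highest in PST (6.54 to 8.96), Rpl18 is lowest in PST 2 (7.59), and Rpl22l1 overlaps in all groups.

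The Apc mutation was compared in normal colon. No member was called in PCN against WCN (limma, 0 of 72, beside 0.130% of all genes in either direction). At an unadjusted p under 0.05, 11 members (15.3%) were lower and none higher, while 6.09% of all genes were lower and 7.29% higher. The member median was -0.14, with 0.01 for all genes. Mitochondrial ribosomal protein genes had a median of -0.28, so the lower median was not particular to the members. In PCN, 16 members were lower in every library than in every WCN library, as in 10.4% of all genes. The member median was -0.22 without PCN 2 and -0.09 without PCN 3. Rpl23a, a protein at the exit of the peptide tunnel, was at 9.70, 9.37 and 10.86 RPKM in WCN and 5.43, 4.74 and 6.92 in PCN, a log2 difference of -0.77 ± 0.17 (limma adjusted p = 0.106). Rps15 was at 7.58, 6.92 and 5.96 RPKM in WCN and 4.09, 2.89 and 2.95 in PCN, a difference of -0.95 ± 0.23 (0.134). Both genes had separate groups but missed the threshold over all genes. Among markers of tissue makeup, those of smooth muscle summed to 1355 to 3241 RPKM in PCN and 4092 to 5193 in WCN. The smooth muscle sums did not overlap, and the median log2 difference was -0.99 over 9 genes. Neutrophil markers had a median of 1.04 over 7 genes, with overlapping sums of 28.9 to 82.1 RPKM in PCN and 8.17 to 47.9 in WCN. No gene of either list passed the test (limma), and their part in the member values was not tested.

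On spinach, PSN against WSN gave 0 called members as well (limma, beside 0% of all genes). At an unadjusted p under 0.05, 29 of 72 members (40.3%) were lower and none higher, while 4.95% of all genes were lower and 3.16% higher. That count was 14 to 19 without any 1 of WSN 1, WSN 3, PSN 1 or PSN 2. The member median was -0.38 and that of all genes -0.07, and 4 members had a difference above 0, beside 38.6% of all genes. Mitochondrial ribosomal protein genes had a median of -0.08 here. In 31 members every PSN library was below every WSN library, as in 9.92% of all genes. Rps16 was at 13.78, 14.90 and 15.18 RPKM in WSN and 9.22, 8.88 and 9.90 in PSN, a log2 difference of -0.62 ± 0.16 (limma adjusted p = 0.505). The groups were separate. Of the marker lists, endothelium summed to 51.9 to 63.4 RPKM in PSN and 81.3 to 96.5 in WSN, and its part was not tested. For the interaction of genotype with diet, limma called 0 members, beside 0% of all genes, with 2 members higher (2.78%) and 6 lower (8.33%) at an unadjusted p under 0.05, beside 1.51% and 3.56% of all genes. Among the members with the smallest p-values, Rpl27a had 0.70 ± 0.26 (limma adjusted p = 0.915).

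The diet alone left no called member in any tissue. In WSN against WCN limma called 0 members, and 0% of all genes were called. At an unadjusted p under 0.05, 1 member was higher and none lower, beside 2.56% and 0.702% of all genes. The member median was 0.07 beside 0.05 for all genes, and it was 0.15 without WCN 2, 0.04 without WCN 3 and 0.12 without WSN 2. In PSN against PCN it called 0, beside 0.00866% of all genes, with 2 members higher (2.78%) and 5 lower (6.94%) unadjusted, beside 2.55% and 2.77% of all genes. The medians were -0.16 for the members and -0.03 for all genes, and that of the members was -0.04 without PCN 2 and -0.07 without PSN 2. Rpl23a was higher in every PSN library (10.58, 7.80 and 8.99 RPKM) than in every PCN library, a log2 difference of 0.64 ± 0.17 (limma adjusted p = 0.474). Rpl23a thus went against the direction of most members. In PST against PCT limma called 0, beside 0% of all genes, with 1 member higher (1.39%) and 8 lower (11.1%) unadjusted, beside 2.84% and 5.13% of all genes, and the medians were -0.12 and -0.02. Rpl34 was at 15.22, 13.67 and 13.38 RPKM in PCT and 11.38, 6.70 and 7.27 in PST, a log2 difference of -0.74 ± 0.20 (limma adjusted p = 0.489). Without PST 2 the member median of this comparison was 0.00, with 1 member higher and 1 lower at an unadjusted p under 0.05, beside 3.38% and 2.89% of all genes. Without PST 3 the median was -0.23, and without any 1 PCT library the members lower at that threshold were 2 to 5.

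**Figure D5:**
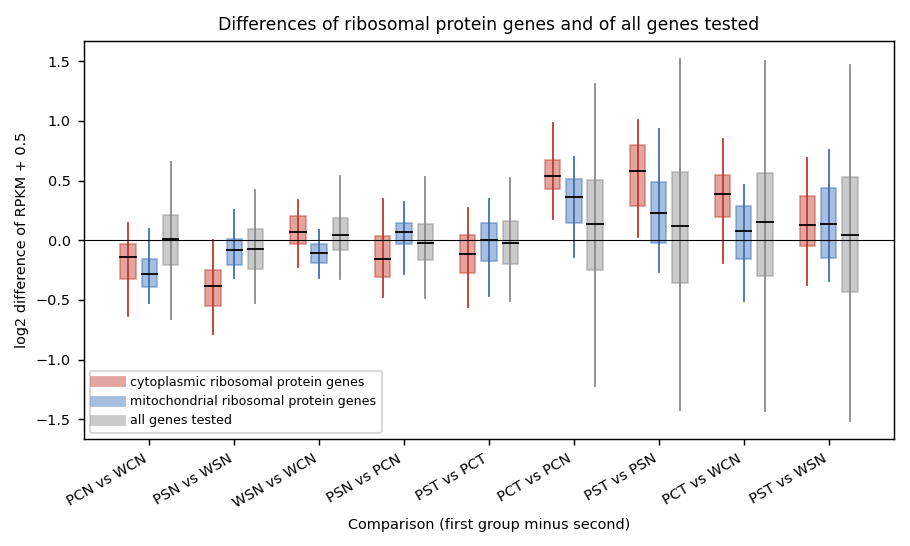
Spread of log2 differences in each of the 9 comparisons for the 72 cytoplasmic members, 64 mitochondrial ribosomal protein genes and all 11544 genes tested, drawn as the 5th, 25th, 50th, 75th and 95th percentiles. Member medians are 0.54 and 0.58 for tumor against normal-looking colon, 0.38 and 0.13 for tumor against WT colon, and -0.14 and -0.38 for normal-looking Pirc against WT colon.

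The member medians of the tumor comparisons depend on where the middle of all genes is set. RPKM put the all-gene median at 0.13 in PCT against PCN, 0.12 in PST against PSN and 0.15 in PCT against WCN. Relative to these, the members lay 0.41, 0.47 and 0.23 higher. Under median-of-ratios scaling, which brings the all-gene median to 0.01, 0.00 and 0.01, the distances were 0.40, 0.47 and 0.23, and 21, 29 and 10 members were called.

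Genes that work with the ribosomal proteins were counted from lists, to be read beside the 21.0% (control diet) and 25.9% (spinach) of all genes that rose and the 11.7% and 16.5% that fell. Of 38 tested genes of ribosome biogenesis, the nucleolar and RNA polymerase I factors that make and trim ribosomal RNA, 32 rose and none fell in each tumor comparison, with medians of 0.82 and 1.12. The rRNA processing factor Nop56 rose by 0.95 ± 0.15 and 1.34 ± 0.15, and the 60S assembly factor Pes1 by 0.88 ± 0.16 and 1.06 ± 0.16. These log2 differences were larger than the member medians of 0.54 and 0.58. Of 27 translation initiation factors, 15 rose and 1 fell on the control diet, and 15 rose and none fell on spinach. Of 9 elongation and release factors, 6 rose on the control diet, and 5 rose and 1 fell on spinach. Of 23 other genes whose mRNAs are known to carry a TOP tract, 12 and 13 rose and none fell. Pabpc1, the poly(A)-binding protein, rose by 0.76 ± 0.15 and 1.28 ± 0.15.

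Of 6 tested chaperones of new ribosomal proteins, 4 and 5 rose. Of 17 regulators in the TOR and Myc pathways, 7 rose (41.2%) and 2 fell (11.8%) in each comparison. Myc rose by 1.77 ± 0.19 and 2.47 ± 0.19. The translation inhibitor Pdcd4 fell by 1.15 and 1.34 on the log2 scale (limma adjusted p = 0.00954 and 0.00251). The list did not move as one. On the control diet the Myc partner Max was lower (-0.64 ± 0.14, limma adjusted p = 0.00296). Eif4ebp1, another translation inhibitor, was higher there (0.91 ± 0.25, limma adjusted p = 0.0133). Of 9 S6 kinase genes, 1 rose and 1 fell on the control diet, and 2 rose and 2 fell on spinach, shares (11.1% and 22.2%) no higher than those of all genes that rose. Of the ribosomal proteins outside the naming rule, Rack1 rose on the control diet (0.60 ± 0.22, limma adjusted p = 0.0463), and Fau passed in neither comparison.

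Most members also varied together within groups, which was not measured for other genes. After removal of the group means, the correlation of a member with the mean of the other members over 18 libraries had a median r of 0.59 (-0.43 to 0.89), and 67 of 72 were above 0. These libraries share their depth and scaling across all members, so r is a description. Rpl24 (-0.43) and Rpl23a (-0.41) were lowest. In PSN, 62 members of PSN 2 lay below the mean of the other 2 libraries and 66 of PSN 3 above it. The median log2 differences were -0.25 and 0.29 for the members. Those of all genes had the same signs, at -0.04 and 0.10. The within-group SD of the members had a median of 0.26 on the log2 scale, near the 0.27 of all genes tested.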

How the data were processed

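RNA-seq was performed on 18 colon libraries (6 groups, 3 each), poly(A)-selected and directional. Per the labels, Bowtie2 and DESeq2 were named by the submitters' processing notes. The authors deposited their values as RPKM with 2 decimals. Genome build, annotation and handling of reads with several matches: not given in the sources used here. Of 17378 entries, 26 whose names were dates were left out. Small RNA values were not used here.

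RPKM is not a count, so log2(RPKM + 0.5) was fitted with limma 3.58.1 (trend, robust; R 4.3.3). The 11544 genes at 1 RPKM or more in at least 3 libraries entered. One fit with a mean for each group (12 residual degrees of freedom) gave 9 comparisons and 2 interactions. The script was tested on simulated data. Members were named by the highest and lowest levels, the largest called changes or smallest p, and known roles. Members and lists were chosen with earlier results of these data known.

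Per the study, tumor and normal-looking colon were matched by animal, but the labels do not say that the library number is the animal, which the block assumes. Deviations of same-numbered libraries from their group means correlated at r = 0.0965, 0.0886 and 0.193 (PCN with PCT) and 0.128, -0.0496 and 0.0219 (PSN with PST). Alternatives were other pseudocounts, filters, scalings, weights and thresholds, a block by library number, and leaving out each library. Start sites and copy counts were taken from RefSeq (GRCr8). Members without a start-site entry included Rpl7, Rpl8, Rpl15, Rpl23a, Rpl27, Rpl30, Rpl32, Rpl39l, Rps20, Rps25 and Rps29. Some members are not reported here by name and are not drawn one by one. Python 3.11.15 with pandas 2.3.3 and scipy 1.17.1 was used.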

Additional observations from a re-analysis of the deposited data

Results flagged for a closer look

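Rpl29 had diet differences of opposite sign in the 2 tissues of Pirc rats, neither of which passed the test. It came from a search of all members, over several pairs of comparisons, for groups separated in opposite directions. The share of all genes with that pattern was not counted. In normal-looking colon every PSN library (2.33, 2.47 and 2.32 RPKM) was below every PCN library (2.94, 4.51 and 3.16), a log2 difference of -0.47 ± 0.19 (SE; limma adjusted p = 0.869). In tumors every PST library (8.96, 6.54 and 7.33 RPKM) was above every PCT library (5.77, 5.36 and 5.71), a difference of 0.40 ± 0.19 (limma adjusted p = 0.634). The interaction of tumor with diet was 0.87 ± 0.28 (limma adjusted p over 11544 genes = 0.999). RefSeq names 25 pseudogenes or "like" genes for Rpl29, whose part in these values was not tested.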

How the results depend on the processing

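Of the member counts and medians of the comparisons and the shares of summed RPKM, 569 values under an alternative stayed near the main value and 33 moved. Near meant within a set factor for counts, within 0.14 log2 units for medians and within the SD of the group for shares. Direction was not part of that rule. The member median of PST vs. PCT, for example, was -0.119 in the main fit and 0.003 without PST 2. For single named members, 1709 stayed on their side of the threshold, 32 lost a call, 19 gained one and 9 changed sign. The counts below are given without the share of all genes under the same alternative. At an adjusted p under 0.01 the called members were 13 (PCT vs. PCN), 19 (PST vs. PSN), 8 (PCT vs. WCN) and 5 (PST vs. WSN). With library weights the counts were 2 in PCN vs. WCN, both lower, 31 in PCT vs. WCN and 14 in PST vs. WSN. With only the groups compared in the fit, they were 20 in PST vs. PSN and 4 in PST vs. WSN. Quantile scaling gave 24 in PST vs. PSN (23 higher, 1 lower) and 9 in PCT vs. WCN, and medians of 0.37, 0.42 and 0.20 in PCT vs. PCN, PST vs. PSN and PCT vs. WCN.

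With a replicate block by library number the counts were 24 in PCT vs. PCN (20 of the 28), 20 in PST vs. PSN, 12 in PCT vs. WCN and 3 in PST vs. WSN. The rats of the last 2 comparisons are not paired, and their numbers alone made the block. Besides Rpl5, Rpl11 and Rps27l in the report, Rps7, Rpl37 and Rpl18 in PST vs. WSN changed their call, and no other named member did. The block was fitted on the groups compared alone. Without it, such a fit also changed the calls of Rpl11, Rps27l, Rpl37 and Rpl18 (limma adjusted p = 0.0717, 0.0285, 0.0656 and 0.110). That fit also lost the call of Rps4x in PST vs. PSN (limma adjusted p = 0.0561), which the block did not.

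Leaving out each library in turn gave 15 (without PCN 3) to 35 (without PCN 2) called members in PCT vs. PCN, 22 (without PSN 2) to 49 (without PST 2) in PST vs. PSN, 9 (without WCN 3) to 19 (without PST 2) in PCT vs. WCN and 6 to 13 in PST vs. WSN. The counts of the other comparisons stayed at 0. Their members lower at an unadjusted p under 0.05 numbered 8 to 14 in PCN vs. WCN, 14 to 34 in PSN vs. WSN, 1 to 9 in PSN vs. PCN, 1 to 11 in PST vs. PCT, 1 to 5 in the tumor by diet interaction and 1 to 9 in that of genotype with diet, and 5 members were higher in WSN vs. WCN without WCN 2. In all 18 of these fits 14 of 28, 18 of 39, 8 of 15 and 5 of 9 members were called. The member median of the tumor by diet interaction ranged from -0.13 to 0.12. Rpl22l1 ranged from -0.13 to 0.12 in PCT vs. PCN and from -0.21 to 0.27 in PST vs. PSN. It was -0.10 and -0.064 with median-of-ratios scaling and -0.14 and -0.12 with quantile scaling, and Rps27 in PST vs. PSN was -0.014 with the latter. The cause was not tested.

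Without the 20 most abundant other genes in the sum, the share of the members was 0.281% in WCN, 0.298% in WSN, 0.267% in PCN, 0.250% in PSN and 0.372% in PCT. With the ribosomal proteins outside the naming rule added it was 0.301%, 0.317%, 0.290%, 0.270%, 0.414% and, in PST, 0.371%. The table holds no mitochondrially encoded genes, so they could not be left out. With 3 libraries a group, read totals unknown and most members near or below 10 RPKM, small differences of single members were not detectable.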
